A study of Mus musculus with 16 samples.

Results

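Vip interneurons are inhibitory neurons that release GABA together with vasoactive intestinal peptide. They arise in the caudal ganglionic eminence (CGE) of the embryo, carry transcription factors such as Prox1 and Npas1, and in the hippocampus synapse mostly on other interneurons, so that their firing releases pyramidal cells from inhibition. One kind also makes calretinin (Calb2), and another, the Vip-positive basket cells, also makes cholecystokinin (Cck) and the cannabinoid receptor Cnr1. Interneurons from the medial ganglionic eminence (MGE), which include the Pvalb and Sst types, need the transcription factors Lhx6 and Sox6 instead.

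Here Vip interneurons were taken from single-nucleus RNA counts by a rule on 7 genes. A kept nucleus had at least 500 UMIs (unique molecular identifiers, counted as molecules), at least 300 genes and at most 5% mitochondrial UMIs. A member then had at least 3 UMIs of Gad1 and Gad2 together and at least 2 of Vip, with at most 2 of Sst and at most 1 each of Pvalb, Slc17a7 and Lamp5. Of 147873 kept nuclei, 357 were members (0.241%), which is 4.49% of the 7949 nuclei with the same Gad1 and Gad2 minimum and at most 1 Slc17a7 UMI (GABA nuclei). The members were thus chosen by the UMIs of these 7 genes, which are described without tests.

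The hippocampi came from 16 female mice aged 9 months, in 4 groups of 4, with 1 library per mouse. They cross 2 factors: the Ch25h genotype, +/+ or -/- (the labels write the gene as CH25H), and a tau state, written Tau- or Tau+. Ch25h encodes cholesterol 25-hydroxylase, an interferon-induced enzyme that makes 25-hydroxycholesterol, and the series title links it to STING, interferon and tau pathology. The labels name neither the tau line, the promoter that drives the tau, the part of Ch25h deleted, nor a batch.

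Libraries held 8130 to 11654 kept nuclei with a median of 3846 to 6508 UMIs, and 13 to 33 Vip nuclei each. Vip nuclei had a median of 6845 UMIs and 2794 genes. Their UMIs summed to between 63691 (Ch25h+/+ Tau- replicate 2, with 13 nuclei) and 255152 per library, so values of that library are the least precise. Of the members, 35 (9.80%) were among the nuclei with the highest doublet scores of their libraries. Leaving out all nuclei so marked took the kept nuclei from 147873 to 136828 and the GABA nuclei from 7949 to 7251. Over all kept nuclei, 2700 of 145135 distinct barcodes occurred in 2 or more libraries; 15 member barcodes did, and 0 were shared between members. Principal component 1 of the Vip sums (23.9% of the variance) separated replicates 1 and 2 from replicates 3 and 4, with 15 of 16 libraries on their side, and 54 of 3650 genes were called between these 2 sets of libraries. The labels give no reason for this split.

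UMIs of Ch25h were counted in all kept nuclei as a check of the labels, and the 2 genotypes overlapped. There were 10 to 39 UMIs in the 8 libraries labelled Ch25h+/+ and 12 to 33 in the 8 labelled Ch25h-/-. Means were 0.208 ± 0.029 CPM (UMIs scaled to library depth, SD, n = 4) in Ch25h+/+ Tau- and 0.452 ± 0.202 in Ch25h+/+ Tau+. They were 0.368 ± 0.104 (Tau-) and 0.448 ± 0.118 (Tau+) in the libraries labelled Ch25h-/-. A 3′ tag outside the deleted part would not show the deletion. The gene Gm26902 ranged from 0.591 to 1.003 CPM in the 8 Ch25h+/+ libraries and from 0.182 to 0.418 in the 8 labelled Ch25h-/-, without overlap. It was chosen after its values were seen, so this separation is no check of the labels. Vip nuclei held 1 Ch25h UMI in all, in the library labelled Ch25h-/- Tau- replicate 4. The genotype is therefore taken from the labels in all that follows.

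Outside the 7 genes of the rule, members carried markers of CGE interneurons. Adarb2, an RNA-binding protein that marks CGE interneurons, was found in 100% of members at 11540 to 19757 CPM per library (median 14060), against 77.7 CPM and 6.23% of reference nuclei. These reference nuclei are 12147 nuclei with at least 2 Mog UMIs, no Gad1, Gad2 or Slc17a7, and a median of 1812 UMIs; they should lack interneuron genes. Synpr, a synaptic vesicle protein, had a library median of 1778 CPM (1376 to 2680), against 160 CPM in reference nuclei. Cnr1 was found in 86.6% of members at 406 to 804 CPM, against 2.53% of reference nuclei and 13.1 CPM, and 163 CPM in barcodes under 100 UMIs. Lhx6, which MGE interneurons keep in adult life, had 3 UMIs over all 357 members. These genes, which the rule did not use, go with the label of a CGE interneuron. The reference nuclei are oligodendrocytes, so values beside them do not set CGE interneurons apart from other interneurons, which are compared below. Vip itself, which chose the members and so supports nothing, had a median of 7 UMIs per member and 801 to 1591 CPM per library, against 2.51 CPM and 0.510% of reference nuclei.

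Markers of other cell types were also present, and barcodes under 100 UMIs, which hold free RNA, give a level to set them beside. Excitatory markers summed to 374 to 585 CPM per library, against 1141 CPM in those barcodes. Astrocyte markers summed to 170 to 1772 CPM, against 1451, with the 2 highest values in Ch25h+/+ Tau- replicates 3 (1772) and 1 (660). Oligodendrocyte markers, at 2507 CPM in those barcodes, summed to 44.0 to 342 CPM in Ch25h+/+ Tau- and 78.5 to 217 in Ch25h+/+ Tau+, which overlapped. They summed to 32.8 to 61.0 CPM in libraries labelled Ch25h-/- Tau- and 107 to 379 under the label Ch25h-/- Tau+, without overlap. Cajal-Retzius markers summed to 15.7 to 164 CPM, against 118, with Lhx1 and Lhx5 at 0. Of the members, 20 held 10 or more astrocyte and oligodendrocyte marker UMIs, and results that moved without them are given below.

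Close to the edge of the rule, the 41 members with exactly 2 Vip UMIs had 14049 CPM of Adarb2 and 189 of Prox1. The 88 nuclei with 1 Vip UMI that met every other condition had 9123 and 144. Of the nuclei that met the Gad and Vip minimum, 14 were left out for Slc17a7 and 2 for Lamp5.

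Vip nuclei were compared with 3 other interneuron populations of the same mice: 1209 Sst nuclei (at least 3 Sst UMIs), 333 Pvalb nuclei and 687 Lamp5 nuclei (at least 2 UMIs of the named gene, with the other marker genes held low). The question is which genes, beyond those that chose the nuclei, differ between Vip nuclei and these 3 populations. UMIs were summed per library and population and fitted with edgeR's quasi-likelihood test over 6765 genes, with the library as a block. A gene was called at an adjusted p under 0.05 and a log2 fold change of at least 1 in size. Against Sst nuclei 316 genes were higher in Vip nuclei (4.67% of those tested) and 371 lower (5.48%). The counts were 556 (8.22%) and 513 (7.58%) against Pvalb nuclei, and 327 (4.83%) and 362 (5.35%) against Lamp5 nuclei. Against all 3 populations, 121 genes were higher (1.79%) and 120 lower (1.77%). Median depths differed, with 9823 UMIs in Sst, 12673 in Pvalb and 9232 in Lamp5 nuclei; the part of depth was not tested.

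Among the genes higher against all 3 populations, 10 were named by the size of the smallest of their 3 differences. Sema5b, a transmembrane semaphorin that guides axons, read 198 ± 68.6 CPM (SD, n = 16) in Vip nuclei, from 93.8 to 332 CPM per library, and at most 13.3 CPM in any library of the other 3. Its log2 fold changes were 5.804 against Sst, 5.67 against Pvalb and 6.06 against Lamp5 nuclei (SE 0.18 to 0.22, edgeR adjusted p at most 7.17e-37). Penk, the precursor of enkephalin opioid peptides, read 81.8 ± 32.0 CPM against 1.83, 0.204 and 1.15 (log2 fold changes 5.36, 6.72 and 5.86). Cadps2, which primes dense-core vesicles for peptide release, read 356 ± 170 CPM against 21.6, 13.2 and 18.9. Grpr, the receptor for gastrin-releasing peptide, read 69.6 ± 33.8 CPM against 8.54, 1.81 and 0.349. Its lowest Vip library read 0, so its ranges overlapped. Fbln2, an extracellular matrix protein, read 126 ± 21.7 CPM, from 86.5 to 161, against 12.5, 1.19 and 3.32. The other genes named by the rule were Rgs12, a regulator of G protein signalling (155 CPM), the actin-binding Svil (169), Prr16 (582), Angpt1, a ligand of the Tie2 receptor (87.2), and the noncoding RNA Gm39185 (86.1), each at least 2.84 log2 units higher. Single libraries also overlapped for Penk (lowest Vip library 6.66 CPM, highest Sst library 7.75) and Angpt1 (lowest Vip library 15.4 CPM, highest Pvalb library 51.4 and Lamp5 library 42.2). For the other 7 of these 10 genes every Vip library was above every library of the other populations.

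**Figure D1:**
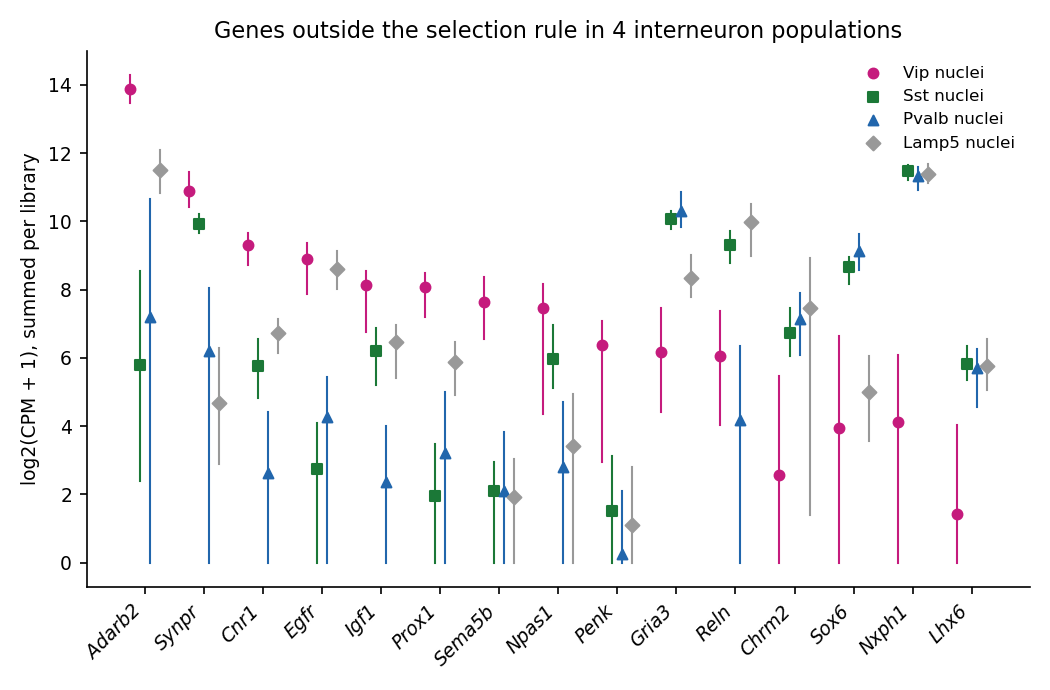
Levels of 15 genes outside the selection rule in Vip, Sst, Pvalb and Lamp5 nuclei, as log2(CPM + 1) of counts summed per library; each symbol is the mean of the libraries and each line runs from the lowest to the highest library. Sema5b, Penk, Cnr1, Prox1 and Adarb2 sit higher in Vip nuclei than in the other 3 populations, and Nxph1, Lhx6 and Chrm2 sit lower.

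The genes lower in Vip nuclei included some that mark MGE interneurons. Nxph1, a secreted glycoprotein, read 16.3 ± 20.6 CPM in Vip nuclei against 2828, 2551 and 2675 in Sst, Pvalb and Lamp5 nuclei, log2 fold changes of -7.53, -7.38 and -7.45 (SE 0.17 each). The highest Vip library, at 66.3 CPM, stayed below the lowest of the others, at 1949. Lhx6 read 1.67 CPM against 55.7, 50.8 and 53.8. Chrm2, the M2 muscarinic receptor, read 4.93 ± 11.6 CPM against 106, 141 and 175; its highest Vip library, at 43.5 CPM, was above the lowest Lamp5 library, at 1.65. The rule also named Moxd1 (0.296 CPM), Mageb18 (1.26), Tmem132c (1.07), Tmem132d (18.8), the HMG-box factors Tox3 (7.34) and Tox2 (7.74), and Eya4, a transcription coactivator (6.46), each at least 3.27 log2 units lower against each population. Besides Chrm2, single libraries overlapped for Mageb18 and Eya4 and, against Lamp5 nuclei, for Moxd1 and Tmem132c. Lamp5 nuclei also held Lhx6 and Nxph1, and both genes were lower in Vip nuclei than there. All 3 populations thus held these MGE genes, and no population low in them was compared. Genes of the Vip type were therefore not tested apart from genes shared by CGE interneurons.

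The gene lists below were chosen with earlier results of these data known, so their counts describe and do not test. Over all 6765 genes, the shares called against all 3 populations were 1.79% higher and 1.77% lower, and each list count below stands beside these. Of 14 CGE and Vip identity genes tested, 8 were higher against all 3 populations (Adarb2, Prox1, Npas1, Nr2f2, Cck, Cnr1, Igf1 and Penk) and 0 lower. Prox1, which keeps CGE interneurons on their path, read 268 ± 63.6 CPM against 2.89, 8.35 and 58.1, the third of these in Lamp5 nuclei (log2 fold changes 6.31, 5.004 and 2.22). Npas1, a transcription factor, was 1.51, 4.79 and 4.17 log2 units higher. Igf1, a growth factor, read 281 ± 74.2 CPM against 73.1, 4.10 and 86.7. Some genes of the list split the populations. Synpr was 0.94 log2 units higher than in Sst nuclei, short of the size asked for, but 4.72 and 6.22 higher than in Pvalb and Lamp5 nuclei. Egfr was 6.50 and 4.69 higher than in Sst and Pvalb nuclei and 0.35 higher than in Lamp5 nuclei. Reln, a secreted glycoprotein of the extracellular matrix, was 3.32 and 3.96 log2 units lower than in Sst and Lamp5 nuclei and 1.57 higher than in Pvalb nuclei. Ndnf was called lower than in Sst and Lamp5 nuclei. Kit and Sema3c were called higher than in Sst and Pvalb nuclei and lower than in Lamp5 nuclei. Of 12 MGE genes, 0 were higher and 3 lower against all 3 (Lhx6, Sox6 and Nxph1).

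Of 12 genes of GABA synthesis, release and uptake, 1 was higher against all 3 populations, the transcription factor Dlx1 at 107 ± 28.5 CPM against 39.8, 23.6 and 34.8, and 0 were lower. Among 8 neuropeptides and secreted factors, 3 were higher (Cck, Penk and Igf1). Erbb4, the neuregulin receptor of many interneurons, was 2.52 log2 units higher than in Sst nuclei and did not pass against Pvalb (-0.06, adjusted p = 0.528) or Lamp5 nuclei (-0.08, adjusted p = 0.445).

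Of 16 neuromodulator and peptide receptors, 3 were higher against all 3 populations and 3 lower. The higher ones were Htr2c, the serotonin 2C receptor, at 371 ± 117 CPM against 52.4, 27.2 and 123; Adra1b, an alpha-1 adrenergic receptor, at 189 ± 81.7 CPM against 10.5, 4.80 and 27.4; and Cnr1 at 634 ± 138 CPM against 52.8, 5.22 and 106. Htr2c was uneven among members: summed over nuclei without TMM, it read 1067 CPM in the 61 members with 3 or more Cck UMIs and 126 in the 243 with none, beside 124 in Lamp5 nuclei. The lower ones were Chrm2, the serotonin receptor Htr2a (6.53 CPM against 34.5, 29.8 and 65.7) and the delta opioid receptor Oprd1 (1.08 CPM against 62.6, 124 and 15.0). Oprd1, a receptor that enkephalins bind, was thus between 3.1 and 6.10 log2 units higher in the populations where Penk was low. The opioid receptor Oprm1, of the same list, was called lower in Vip nuclei against Lamp5 nuclei alone.

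Of 21 glutamate receptor genes, 1 was higher and 3 lower. Grm8, a presynaptic metabotropic receptor, read 881 ± 236 CPM against 345, 25.4 and 135. The AMPA receptor subunit Gria1 read 617 ± 122 CPM against 4012, 2887 and 2548, and Gria3 read 71.0 ± 37.2 against 1079, 1270 and 325. Grm5 was 1.25 to 1.51 log2 units lower. Of 14 GABA receptor genes, 1 was lower, Gabrd, the delta subunit of extrasynaptic receptors (1.30 CPM against 5.45, 62.1 and 32.2). Of 33 synaptic adhesion genes, 4 were lower against all 3 populations (Ptprt, Tenm3, Adgrl2 and Unc5d). Cntn6, a contactin, was higher at 556 ± 101 CPM against 169, 219 and 115. Adgrl2, a latrophilin, read 3.91 CPM in Vip nuclei against 184, 122 and 23.6.

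Members also varied among themselves. Calb2 was found in 80 of 357 members (22.4%) and in 28 at 2 or more UMIs, and Cck in 114 (31.9%), with 61 at 3 or more. Both were found in 15 members and neither in 178. After each nucleus was thinned to 3000 UMIs, which left out 12 shallower members, Calb2 was found in 12.8% of 345 Vip nuclei. It was found in 0.870% of 7474 other GABA nuclei and 0.344% of 1455 reference nuclei. Cck was found in 23.8% of Vip nuclei, 8.56% of other GABA nuclei and 4.67% of reference nuclei, where free Cck RNA also reads (325 CPM in barcodes under 100 UMIs).

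Members with Calb2 were compared with those without it in the same libraries (80 against 262 nuclei in 15 libraries, 1040 genes, edgeR with the library as a block). At an adjusted p under 0.05, 48 genes were higher with Calb2 (4.62%) and 46 lower (4.42%). Calb2 nuclei had a median of 7098 UMIs and the 277 members without Calb2 one of 6735. Gpc6, a cell-surface heparan sulfate proteoglycan, read 1293 ± 577 CPM against 636 ± 199 (log2 fold change 0.98, SE 0.15, adjusted p = 1.04e-04; higher in 14 of 15 libraries). Ano4 was higher in 15 of 15 libraries (log2 fold change 0.70, SE 0.12). Others named by the rule were the signalling ligand Wnt5b (0.90), the BMP antagonist Vwc2 (0.88), Gm20754 (0.80), the semaphorins Sema5a (0.77) and Sema5b (0.74), the TRH-degrading enzyme Trhde (0.77), the Slit receptor Robo2 (0.75) and Cpne4 (0.71). Cpne4 lost its call without Ch25h+/+ Tau- replicate 1 or without Ch25h-/- Tau+ replicates 2 or 3 or Ch25h-/- Tau- replicates 3 or 4 (adjusted p 0.0518 to 0.0646). With no filter on low counts, 8 of these 10 did not pass; Gpc6 and Vwc2 did.

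Other genes were lower with Calb2. Kctd16, an auxiliary subunit of GABA-B receptors, read 329 ± 141 CPM against 1299 ± 409 (log2 fold change -1.98, SE 0.18, adjusted p = 1.22e-08; higher with Calb2 in 0 of 15 libraries). Shisa9, which modulates AMPA receptors, had a log2 fold change of -1.96 and was also higher in 0 of 15. Col25a1 (-2.99), Htr2c (-1.85), Zfp385b (-1.78), St6galnac5 (-1.78), Tmtc2 (-1.76), Neto1 (-1.41), Pigk (-1.40) and Pbx3 (-1.40) followed. The shares over all 1040 genes were 4.62% higher and 4.42% lower. Of 24 synaptic adhesion genes, 5 were higher with Calb2 (among them Cntn4, Cntn6 and Nlgn1) and 2 lower. Of 14 glutamate receptor genes, 2 were higher (Grm7 and Grik2) and 0 lower. Of 7 receptor genes for modulators and peptides, 3 were lower (Htr2c, Adra1b and Cnr1) and 0 higher. Of 7 CGE and Vip identity genes, Egfr was higher (0.63) and Cnr1 (-0.61) and Adarb2 (-0.34) lower. The 2 classes also differed in Cck: 5 of the 80 nuclei with Calb2 had 3 or more Cck UMIs, against 56 of the 277 without, and Htr2c, Cnr1 and Adarb2 were higher in Cck nuclei, as given next. The part of Cck in these differences was not tested. With no filter on low counts, 4 genes were higher and 220 lower and the median of all genes moved to -0.35, so the balance of higher and lower calls rests on the filter.

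Cck drew a second division, described without a test because it was chosen after its values were seen. The 61 members with at least 3 Cck UMIs (median depth 8880 UMIs) were set beside the 243 with none (6505). Summed over nuclei, Cnr1 read 1228 CPM with Cck and 431 without it, Tac2, a tachykinin precursor, 157 and 50.8, Cxcl14, a chemokine, 110 and 26.9, and Crh, corticotropin-releasing hormone, 78.5 and 19.7. Htr2c read 1067 and 126 CPM and Adarb2 24768 and 12039. Penk read 12.2 CPM with Cck and 115 without, Nos1, a nitric oxide synthase, 12.2 and 81.3, Calb2 17.4 and 58.0 and Prox1 134 and 316. Igf1 read 295 and 300 CPM. Calb2 was found in 5 of the 61. Slc17a8, a vesicular glutamate transporter of some Cck basket cells, had 5 UMIs in all members together.

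**Figure D2:**
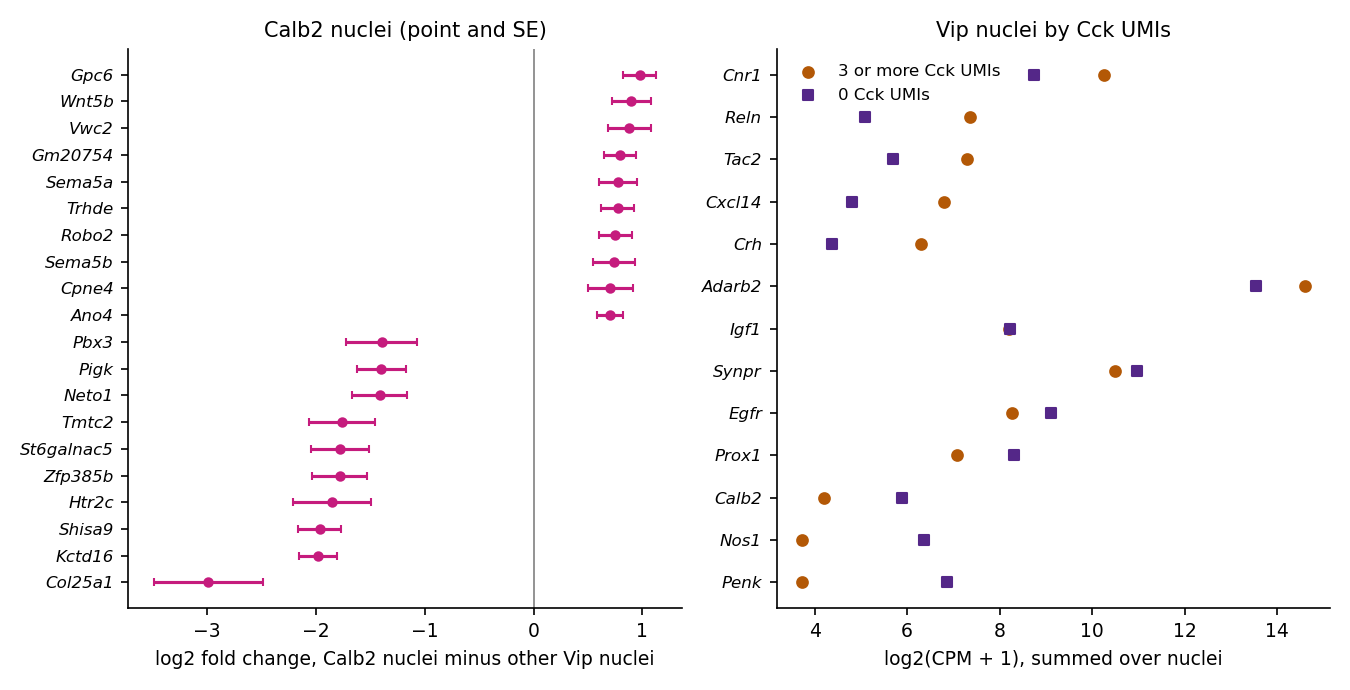
Left, log2 fold changes with their standard errors between Vip nuclei with and without Calb2 for the 20 genes named by the rule; right, log2(CPM + 1) of 13 genes summed over the 61 Vip nuclei with 3 or more Cck UMIs and the 243 with none. Kctd16, Shisa9 and Htr2c sit to the left of 0 and Gpc6 to the right; Cnr1, Reln and Tac2 are higher with Cck and Penk and Nos1 without it.

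Groups held unequal numbers of the nuclei with 3 or more Cck UMIs: 6 of 82 members (7.32%) in Ch25h+/+ Tau-, 22 of 97 (22.7%) in Ch25h+/+ Tau+, 21 of 91 (23.1%) in libraries labelled Ch25h-/- Tau- and 12 of 87 (13.8%) under the label Ch25h-/- Tau+. In the same order, single libraries held 0 to 5, 4 to 7, 4 to 6 and 1 to 4 such nuclei. Over both genotypes the shares were 15.6% in Tau- and 18.5% in Tau+. Values without these nuclei are given below for Unc5c, Reln, Nkain3 and Lsamp.

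The next comparison asked whether tau or the Ch25h genotype went with the number of Vip nuclei. Fewer cells in the tissue, fewer recovered nuclei and less Vip RNA per nucleus cannot be told apart here. Vip nuclei made up 4.06 ± 1.45% of GABA nuclei (SD, n = 4; 2.17 to 5.59%) in Ch25h+/+ Tau- and 5.10 ± 1.40% (3.83 to 6.37%) in Ch25h+/+ Tau+. They made up 4.54 ± 1.27% (3.50 to 6.38%) in libraries labelled Ch25h-/- Tau- and 4.46 ± 0.634% (3.67 to 5.16%) under the label Ch25h-/- Tau+. The 4 groups overlapped. The largest of the 6 differences, between Tau+ and Tau- in Ch25h+/+, was 1.05 percentage points (two-sided exact permutation p = 0.343, 70 arrangements, adjusted p = 0.871 over 12 tests). The tau difference over both genotypes was 0.489 points (exact permutation p = 0.436, 4900 arrangements, adjusted p = 0.871).

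The share of members with Calb2, thinned to 3000 UMIs, was 14.1 ± 9.89% in Ch25h+/+ Tau-, 16.5 ± 8.41% in Ch25h+/+ Tau+, 14.9 ± 4.67% in libraries labelled Ch25h-/- Tau- and 7.35 ± 6.75% under the label Ch25h-/- Tau+. The lowest exact permutation p of these 6 differences was 0.114, between Tau+ and Tau- in libraries labelled Ch25h-/- (adjusted p = 0.871). Each share rests on the 13 to 33 Vip nuclei of a library before thinning.

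**Figure D3:**
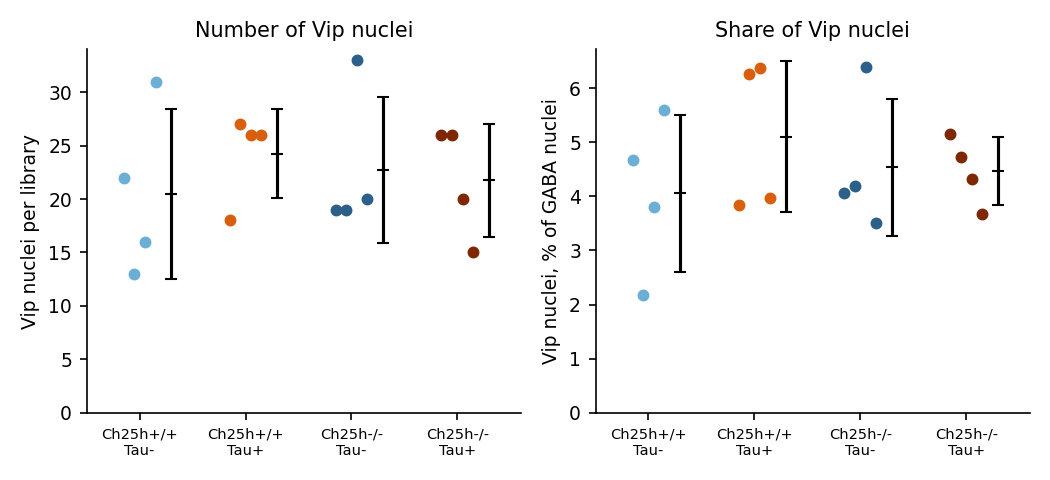
Number of Vip nuclei per library (left) and Vip nuclei as a percentage of GABA nuclei (right) in the 4 groups; each point is 1 mouse, and the bar gives the mean and SD of 4. The groups overlap in both panels, and the lowest share, 2.17%, is that of Ch25h+/+ Tau- replicate 2.

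Genes were then compared between the groups in Vip nuclei alone (edgeR, 16 libraries, 3647 genes besides those of the rule, called at an adjusted p under 0.05). In Ch25h+/+, 0 genes differed with tau (0%, 184 at an unadjusted p under 0.05, DESeq2 1, library set as a block 1). In libraries labelled Ch25h-/- 4 did (0.11%; 1 higher, 3 lower). Over both genotypes 5 did (0.137%; 1 higher, 4 lower; 223 had an unadjusted p under 0.05). With the Ch25h genotype of the labels, 0 genes differed in Tau+ (0%; 116 at an unadjusted p under 0.05, DESeq2 0), 1 in Tau- (0.0274%) and 0 over both tau states (0%; 158 at an unadjusted p under 0.05, DESeq2 0). The difference between the 2 tau effects passed for 1 gene (0.0274%). In simulated counts at this depth, the tau test over both genotypes recovered 91.7% of 193 genes changed 2-fold. It also called 6 genes that had not been changed. Changes were placed only in genes above a minimum UMI count, all genes had the same spread, and the split of replicates was not simulated. The figure therefore does not cover genes of low count or the contrasts within a genotype or tau state. Values below are TMM-scaled CPM of the Vip nuclei, except that sums over a list, values of reference nuclei and values over a part of the members (by Cck or without glial UMIs) are UMIs over the plain sum.

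Gm43049, a long noncoding RNA at chr3:140692038-140760704 (GRCm38, minus strand), had 0 UMIs in all 8 Tau- libraries. In Ch25h+/+ Tau+ the 4 libraries read 107, 76.0, 23.6 and 43.6 CPM, and in those labelled Ch25h-/- Tau+ 104, 66.6, 50.7 and 19.5. Every Tau+ library was above every Tau- library. Against a floor of 3 UMIs over the Tau- group, it was at least 25.5-fold higher in Tau+ over both genotypes (88 UMIs, edgeR adjusted p = 1.75e-04) and at least 15.99-fold higher in those labelled Ch25h-/- (45 UMIs, adjusted p = 0.00614; 0.0882 without Ch25h-/- Tau+ replicate 1). In Ch25h+/+ the bound was 9.91-fold (43 UMIs) and the adjusted p was 0.160. In replicates 3 and 4 alone Gm43049 was not among the genes tested. In other GABA nuclei it read 0.153 ± 0.290 CPM in Tau- and 77.3 ± 10.2 in Tau+ (n = 8). The noncoding Gm32754, at chr3:140904998-140917459 between Gm43049 and Unc5c, had 8 UMIs in Tau+ and 0 in Tau-, too few to test in Vip nuclei alone. Other GABA nuclei held Gm32754 at 0 CPM in Tau- and 7.59 ± 1.64 in Tau+. Effects of tau and of a chromosome 3 region that differs between the tau states were not tested apart.

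Unc5c, a receptor for the guidance cue netrin, lies on the same chromosome at chr3:141465216-141834924, 704.51 kb from Gm43049. In libraries labelled Ch25h-/- Tau- it read 752, 899, 495 and 570 CPM, and in those labelled Ch25h-/- Tau+ 137, 325, 177 and 215. These groups did not overlap (log2 fold change -1.62, SE 0.24, adjusted p = 8.04e-04). In Ch25h+/+ it read 330, 277, 269 and 440 CPM in Tau- and 164, 271, 316 and 223 in Tau+, which overlapped and did not pass (-0.44, SE 0.25, adjusted p = 0.973). Over both genotypes Unc5c fell by 1.03 log2 units with tau, from 504 ± 228 to 228 ± 69.9 CPM (SE 0.17, adjusted p = 0.00369), and passed with each single library left out (adjusted p at most 0.0246). The difference between the 2 tau effects did not pass (-1.18, SE 0.35, adjusted p = 0.553). Between Tau- groups it was higher in libraries labelled Ch25h-/- without overlap, and that did not pass (0.99, SE 0.24, adjusted p = 0.253). Among members with under 3 Cck UMIs, library means were 470 ± 234 CPM in Tau- and 172 ± 64.4 in Tau+. In replicates 3 and 4 alone the fold change was -0.94 and did not pass (adjusted p = 0.264), nor did it within those labelled Ch25h-/- (-1.44, adjusted p = 0.103). Reference oligodendrocyte nuclei held Unc5c at 1181 CPM. Oligodendrocyte markers in Vip nuclei summed to 32.8 to 61.0 CPM in Tau- and 107 to 379 in Tau+ among libraries labelled Ch25h-/-. In Ch25h+/+ they summed to 44.0 to 342 CPM in Tau- and 78.5 to 217 in Tau+, which overlapped. The part of these markers in the result was not tested.

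Reln read 16.3 to 116 CPM in Ch25h+/+ Tau- (116, 16.3, 89.6 and 60.7) and 38.0 to 47.2 in Ch25h+/+ Tau+, which overlapped. In libraries labelled Ch25h-/- it read 98.7, 163, 97.4 and 106 CPM in Tau- and 21.9, 33.3, 19.0 and 39.1 in Tau+, which did not overlap. Over both genotypes Reln fell by 1.44 log2 units with tau, from 93.5 ± 42.4 to 34.8 ± 9.69 CPM (SE 0.27, adjusted p = 0.00616). Within those labelled Ch25h-/- it fell by 2.003 log2 units (SE 0.37, adjusted p = 0.00614), a call lost without Ch25h-/- Tau+ replicates 1 or 3 or Ch25h-/- Tau- replicate 2 (adjusted p 0.0518 to 0.0882). Over both genotypes Reln did not pass when Ch25h+/+ Tau- replicate 1 was left out (-1.26, adjusted p = 0.0783) or in either pair of replicates alone (-1.62, adjusted p = 0.0650, and -1.29, adjusted p = 0.526). Reln had 1 to 25 UMIs per library. Its level also differed by Cck. Summed over the nuclei with 3 or more Cck UMIs, Reln read 270 CPM in Tau- (76 UMIs, 27 nuclei) and 61.7 in Tau+ (18 UMIs, 34 nuclei). Of these, 21 of the 27 and 12 of the 34 were labelled Ch25h-/-, so genotype was not balanced. These sums are not means over mice and were not tested. Among members with under 3 Cck UMIs, library means of Reln were 47.0 ± 32.6 CPM in Tau- and 29.4 ± 21.2 in Tau+. Reln is also a Cajal-Retzius gene; the other 6 markers of that type averaged 6.96, 10.9, 26.5 and 24.3 CPM in Ch25h+/+ Tau-, Ch25h+/+ Tau+ and those labelled Ch25h-/- Tau- and Ch25h-/- Tau+. Their part in the result was not tested.

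Nkain3, a membrane protein that binds the sodium pump, read 343, 277, 336 and 167 CPM in Ch25h+/+ Tau- and 73.9, 133, 231 and 175 in Ch25h+/+ Tau+, with some overlap. In libraries labelled Ch25h-/- it read 426, 208, 362 and 431 CPM in Tau- and 120, 95.8, 108 and 205 in Tau+, without overlap. It fell by 1.13 log2 units over both genotypes (SE 0.22, adjusted p = 0.0169) and by 1.49 in those labelled Ch25h-/- (SE 0.30, adjusted p = 0.0425). The call over both was lost without any 1 of 6 libraries: Ch25h+/+ Tau+ replicate 2, Ch25h+/+ Tau- replicates 1 and 3, and Ch25h-/- Tau+ replicates 1, 2 and 3 (adjusted p 0.0509 to 0.0783). In replicates 3 and 4 alone it was -0.80 (adjusted p = 0.699). The call in those labelled Ch25h-/- was lost with at least 3 Vip UMIs (adjusted p = 0.0778), without the 35 nuclei of high doublet score (0.0671) or without any 1 of 9 libraries: Ch25h+/+ Tau+ replicates 2 and 4, Ch25h+/+ Tau- replicate 2, Ch25h-/- Tau+ replicates 1, 2 and 3, and Ch25h-/- Tau- replicates 1, 3 and 4 (0.0647 to 0.301). Members with under 3 Cck UMIs averaged 254 ± 54.9 CPM in Tau- libraries and 120 ± 81.8 in Tau+.

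Lsamp, a cell adhesion protein of limbic neurons at chr16:39984361-42181679, showed the smallest change and no overlap over both genotypes. It read 4785 to 7044 CPM in the 8 Tau- libraries (median 5903) and 3801 to 4764 in the 8 Tau+ libraries (median 4334). It fell by 0.45 log2 units (SE 0.09, edgeR adjusted p = 0.0169). Among members with under 3 Cck UMIs, Lsamp read 4784 to 6960 CPM in Tau- libraries and 3677 to 4853 in Tau+, which overlapped. It did not pass without the nuclei of high doublet score (-0.36, adjusted p = 0.226), without the 20 nuclei with glial UMIs (-0.40, adjusted p = 0.0750), in either pair of replicates alone, or without any 1 of 4 libraries: Ch25h+/+ Tau+ replicate 2, Ch25h+/+ Tau- replicate 3, Ch25h-/- Tau+ replicate 2 and Ch25h-/- Tau- replicate 1 (adjusted p 0.0506 to 0.0973).

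**Figure D4:**
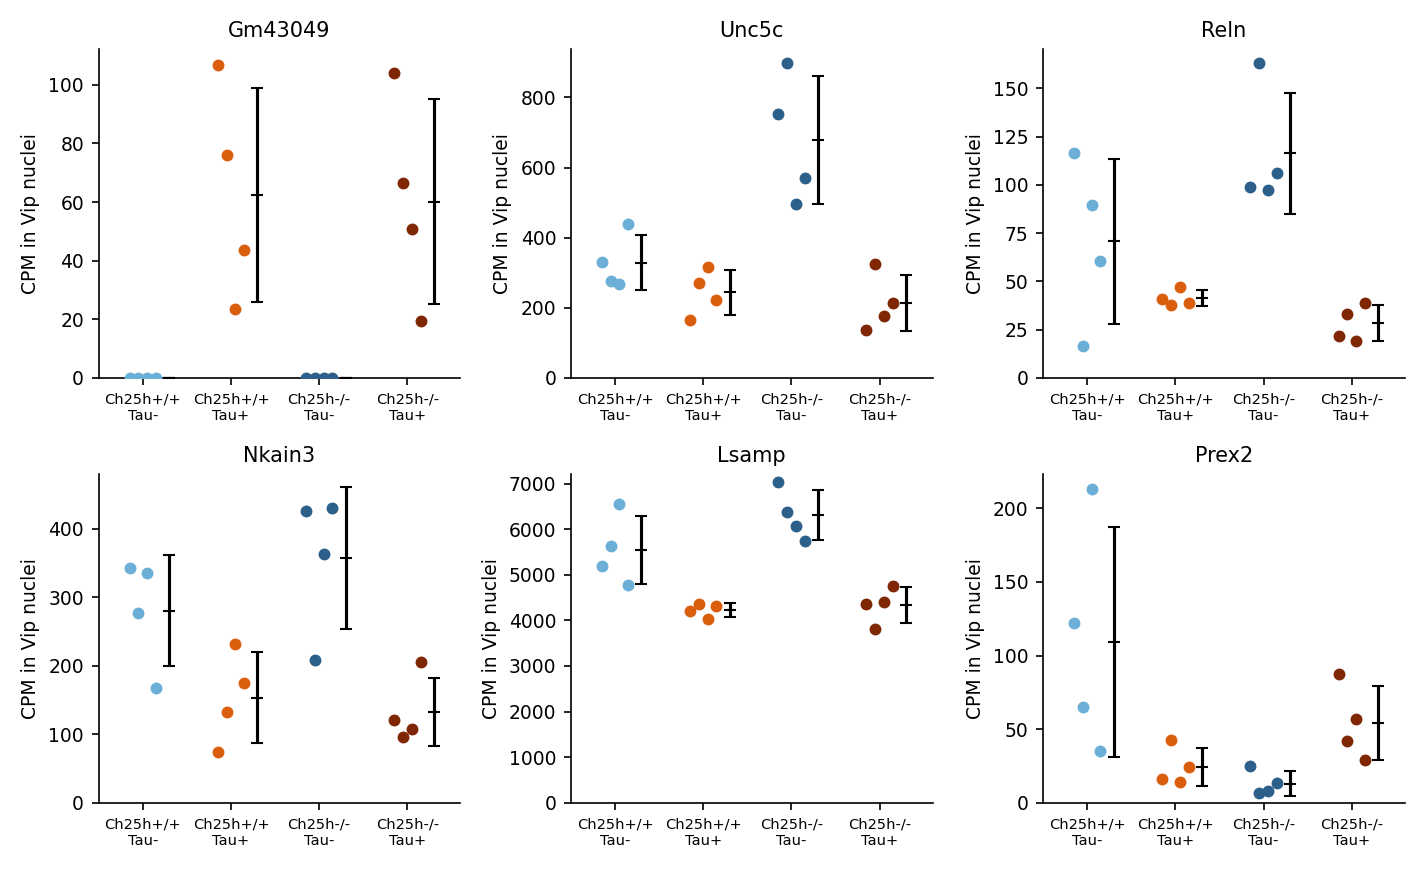
CPM in Vip nuclei for the 6 genes called between groups; each point is 1 mouse and the bar gives the mean and SD of 4. Gm43049 is at 0 in both Tau- groups, Unc5c, Reln and Nkain3 are highest in the libraries labelled Ch25h-/- Tau-, and Prex2 is highest in Ch25h+/+ Tau-, where replicate 3 reads 213 CPM.

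Prex2, an activator of the GTPase Rac at chr1:10993465-11303681, was the gene that differed with the Ch25h genotype in Tau- mice. It read 122, 65.2, 213 and 35.4 CPM in Ch25h+/+ Tau- and 24.7, 6.52, 7.80 and 13.2 in libraries labelled Ch25h-/- Tau-, without overlap (log2 fold change -2.97, SE 0.58, adjusted p = 0.0454). In Tau+ the means were 24.4 ± 13.0 CPM in Ch25h+/+ and 53.9 ± 25.1 in those labelled Ch25h-/-, and the difference between the tau effects was 4.09 log2 units (SE 0.80, adjusted p = 0.0408). The 2 libraries with the most Prex2 were also the 2 with the most astrocyte markers (660 and 1772 CPM). Without Ch25h+/+ Tau- replicate 3 the values were -2.50 (adjusted p = 0.425) and 3.63 (adjusted p = 0.291). The genotype difference also lost its call without Ch25h+/+ Tau- replicate 1, Ch25h-/- Tau+ replicates 1 or 3 or Ch25h-/- Tau- replicates 2, 3 or 4 (adjusted p 0.0518 to 0.243). The difference between tau effects did so without Ch25h+/+ Tau+ replicates 1, 3 or 4 or any of those same libraries (adjusted p 0.0644 to 0.199). Neither passed in either pair of replicates alone (adjusted p 0.119 to 0.521). Without the 20 members with glial UMIs, group means on the plain scale were 26.4 CPM in Ch25h+/+ Tau- and 6.88 under the label Ch25h-/- Tau-, on 14 and 5 UMIs, and Prex2 no longer met the count filter.

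Other genes of the study's theme were not called in Vip nuclei. Prnp, the prion protein gene, read 67.3 ± 16.7 CPM in Tau- and 102 ± 42.9 in Tau+ over both genotypes (log2 fold change 0.48, SE 0.22, adjusted p = 0.743). In libraries labelled Ch25h-/- it read 39.8 to 71.7 CPM in Tau- and 87.4 to 166 in Tau+ without overlap (1.06, SE 0.29, adjusted p = 0.338). In Ch25h+/+ the means were 73.7 ± 18.1 and 71.4 ± 15.6 CPM (-0.09, SE 0.32). Prnp had 4 to 26 UMIs per library in Vip nuclei. Other GABA nuclei read 33.85 to 61.35 CPM in Tau- and 69.53 to 88.04 in Tau+, without overlap. The tau effects of the 2 populations did not differ by test (-0.21, SE 0.24, edgeR adjusted p = 0.981). The mouse tau gene Mapt read 384 ± 67.6 and 403 ± 55.0 CPM (0.06, SE 0.13, adjusted p = 0.981). The 36 interferon-stimulated genes summed to 344 UMIs in all members, and 0 of them reached the count filter. Their summed level was 112 ± 29.0 CPM in Ch25h+/+ Tau-, 137 ± 43.9 in Ch25h+/+ Tau+, 106 ± 24.5 in libraries labelled Ch25h-/- Tau- and 159 ± 70.7 under the label Ch25h-/- Tau+; these groups overlapped. Of 37 cholesterol and oxysterol genes, 5 were tested and 0 passed for tau over both genotypes, with a median log2 fold change of -0.15 against 0.01 for all genes; their summed level was 976 to 1135 CPM in the 4 groups. Of 22 immediate early genes, which report recent activity, 2 were tested and 0 passed.

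With 5 of 3647 genes called (0.137%) for tau over both genotypes, few calls can fall in any list, and nothing is read from the following counts about the lists. Of 17 CGE and Vip identity genes tested, 1 fell (Reln) and 0 rose, with a median of -0.03. Of 26 synaptic adhesion genes, 1 fell (Unc5c) and 0 rose, with a median of -0.07. Of 15 neuromodulator and peptide receptors, 20 glutamate receptor genes, 11 GABA receptor genes, 9 genes of GABA synthesis and 7 neuropeptides, 0 passed, with medians of -0.07, 0.04, -0.11, 0.01 and -0.03 against 0.01 over all 3647 genes. Within libraries labelled Ch25h-/- the medians were -0.28 for the CGE and Vip identity genes and -0.19 for synaptic adhesion. They were -0.20 for the receptors of modulators and peptides, 0.14 for glutamate receptors and -0.13 for GABA receptors, against 0.01 over all genes. In Ch25h+/+ the medians of the same lists lay between -0.08 and -0.008, against -0.003 over all genes. Glutamate receptors, at -0.08, had the opposite sign there.

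Tau effects in Vip nuclei were last set against those in all other GABA nuclei of the same mice (7592 nuclei), by the interaction of population and tau state with the library as a block (edgeR, 13716 genes). The same estimate of spread served Vip and other GABA sums, although Vip sums hold fewer nuclei. The difference passed for 23 genes (0.168%, 802 at an unadjusted p under 0.05). Of these, 22 had a lower tau effect in Vip nuclei and 1 (Thsd7b) a higher one. Without Ch25h+/+ Tau- replicate 3 the split was 23 lower and 7 higher. Without Ch25h+/+ Tau- replicate 2 it was 29 lower and 0 higher. The count of 23 was 9 without Ch25h-/- Tau+ replicate 2 or Ch25h-/- Tau- replicate 3, 10 without Ch25h-/- Tau+ replicate 3, 14 without replicate 4 of either Tau+ group and 15 without Ch25h-/- Tau- replicate 2. With Ch25h genotype in place of tau it passed for 0 genes (0%; 630 at an unadjusted p under 0.05; DESeq2 was not run for this comparison).

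Nkain3 had the lowest p. In Vip nuclei it read 319 ± 95.4 CPM in Tau- and 143 ± 55.5 in Tau+ (n = 8), while other GABA nuclei read 654 ± 120 and 763 ± 153. The 2 effects differed by -1.39 log2 units (SE 0.17, adjusted p = 1.46e-12), and the difference passed without each single library (adjusted p at most 4.56e-08). Reln fell from 93.5 to 34.8 CPM in Vip nuclei and read 486 and 424 in other GABA nuclei, a difference of -1.27 (SE 0.25, adjusted p = 0.00104). Unc5c differed between populations by -0.10 log2 units (95% interval -0.62 to 0.41, adjusted p = 0.9995), with other GABA nuclei at 1308 ± 141 CPM in Tau- and 668 ± 67.0 in Tau+. Lsamp read 9106 and 8709 CPM there and the difference did not pass (-0.39, SE 0.12, adjusted p = 0.258).

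Grin2a, an NMDA receptor subunit, read 481 ± 268 and 253 ± 82.1 CPM in Vip nuclei of Tau- and Tau+ libraries and 1246 ± 125 and 1212 ± 104 in other GABA nuclei (difference -0.81, adjusted p = 0.00722). The diacylglycerol kinase Dgkb read 445 ± 168 and 299 ± 68.0 in Vip nuclei and 581 ± 113 and 740 ± 178 in others (-0.87, adjusted p = 7.38e-05). Fat3, an atypical cadherin, read 168 and 105 in Vip nuclei and 215 and 280 in others (-1.05, adjusted p = 1.21e-04). For Nkain3 the ratio of Vip to other GABA nuclei did not overlap between the tau states. It overlapped for every other called gene, among them Reln, Grin2a, Dgkb, Fat3 and Thsd7b. Thsd7b read 113 and 213 in Vip nuclei and 194 and 177 in others (0.91, adjusted p = 0.0278).

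**Figure D5:**
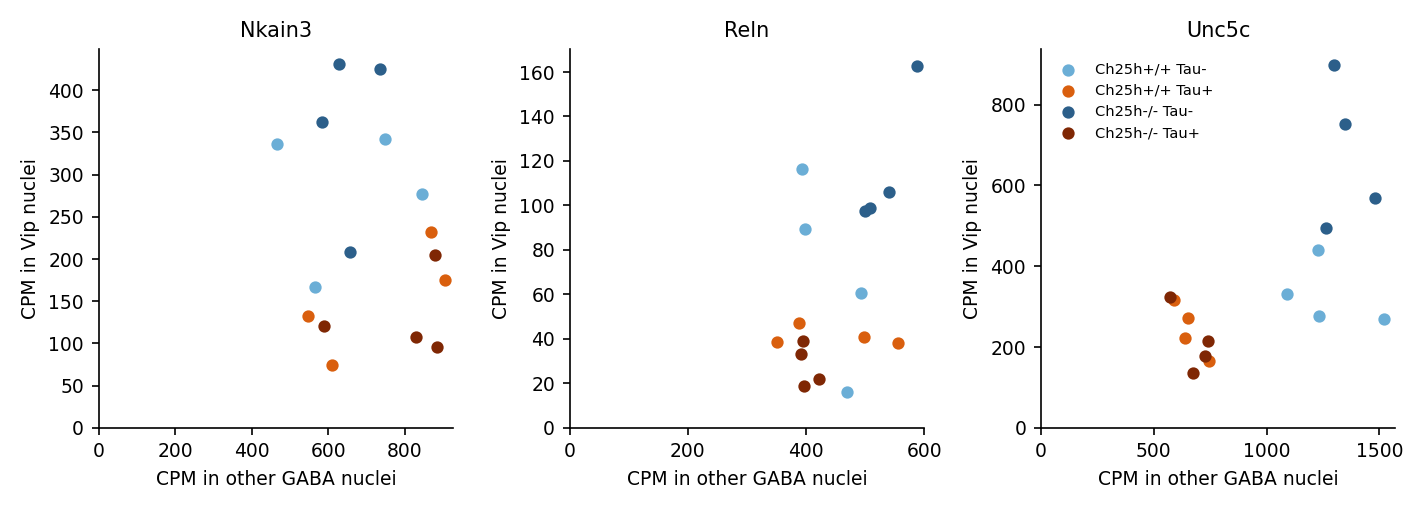
CPM of Nkain3, Reln and Unc5c in Vip nuclei (vertical axis) against other GABA nuclei (horizontal axis), 1 point per mouse, coloured by group. Nkain3 separates the tau states mostly along the vertical axis, from 319 to 143 CPM on average, and Unc5c along both axes.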

How the data were processed

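Nuclei of 16 hippocampi were measured with Chromium 3′ v3.1 chemistry. The values deposited by the authors are UMI counts per gene and barcode for all barcodes, 1 matrix per library, with no normalisation. The submitters' processing notes name mm10, Cell Ranger 3.1.0 and Seurat; the file headers name Cell Ranger 4. Filters on barcodes were set here, as the report gives them. Summed UMIs over all barcodes were 51270831 to 84870650 per library. Per-sample columns without a sample numbered 0.

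Counts were summed over the nuclei of each population and library, so the mouse is the replicate. They were tested with edgeR 4.0.16 (R 4.3.3, TMM scaling, filterByExpr with a minimum count of 10, quasi-likelihood test, Benjamini-Hochberg adjustment over all genes tested). DESeq2 1.42.0 was an alternative. Condition tests used 1 fit over all 4 groups; population tests had the library as a block. For shares, exact permutation tests were used, two-sided (scipy 1.17.1). Library CPM are TMM-scaled, except in the checks of Ch25h and of the label, sums over any list, reference nuclei, the values near the rule and values over a part of the members (by Cck, or without glial UMIs), which are UMIs divided by the plain sum, without TMM. Doublets were scored with Scrublet (scanpy 1.11.5); the top 0.8% per 1000 nuclei were marked and kept, and left out in an alternative. Gene positions are from GENCODE M21 (GRCm38), matched for 32158 of 32285 genes.

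The members, gene lists and tests were chosen with earlier results of these data known. Genes are named by rule: for conditions, up to 5 higher and 5 lower called genes with no overlap and 5 or more UMIs per library on average in the higher group, or else the called ones; for populations and Calb2, up to 10 each way called (for populations against all 3), by the smallest difference in size; Prnp, Mapt, Ch25h, Gm43049, Gm32754 and Unc5c in any case, and list members beside their list's count. Gm26902 and Slc17a8 were chosen after their values were seen. For the tau effect in Vip against other GABA nuclei, the rule on overlap left Nkain3 alone. The other called genes named there fell outside it. Calb2 nuclei were planned at 2 or more UMIs, which could not be fitted because 1 library had enough of them; at least 1 UMI and 3 nuclei of both classes per library was used instead, chosen after seeing the data. Replicate numbers are in accession order and pair no samples. The p-values measure the spread between these mice, in edgeR with an estimate that draws on all genes tested. For Vip against other GABA nuclei that estimate covers both populations, so those p-values do not measure the spread of Vip sums alone. In simulated counts, with the limits given above, the tau test over both genotypes recovered 100% of 197 genes changed 4-fold, with 10 false calls. Sequences of genes were not used here. Some results of the synaptic adhesion and GABA receptor lists are not reported here.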

Additional observations from a re-analysis of the deposited data

Results flagged for a closer look

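In the Ch25h-/- Tau- group as labelled, replicate 2 stood apart for Reln, at 162.9 CPM against 97.4 to 106 in the other 3 libraries; its gap was 0.869 of the group's range, above Dixon's critical value for 4 samples. Chance alone gives about 1 such flag in 20 groups, and 48 groups were looked at. Ch25h read 6.627 CPM, from 1 UMI, in Vip nuclei of replicate 4 of that group and 0 in every other library.

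For Prex2 the tau effects in the 2 genotypes as labelled differed by 4.091 log2 units.

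The tau effect in Vip nuclei differed by test from that in other GABA nuclei for 18 genes that averaged 5 or more UMIs a library. For all of these but Nkain3, the ratio of Vip to other GABA nuclei overlapped between the tau states. The differences in log2 units were -1.393 for Nkain3, -0.8694 for Dgkb, -1.052 for Fat3, -1.269 for Reln, -1.169 for Slc35f3 and -0.8053 for Grin2a. They were -1.462 for Ptpn3, -1.055 for Zdhhc14, -0.7066 for Dgkg, -0.7116 for Galnt13, -0.7964 for Man1a and -1.086 for Cep112. The cadherins Cdh9 and Cdh8 gave -1.137 and -0.6546, the kinase Hunk -1.599, the unconventional myosin Myo10 -1.552 and the sorting receptor Sorcs1 -0.589. Thsd7b gave 0.9106. Cdh9 read 80.5 CPM in Tau- and 34.8 in Tau+ in Vip nuclei and 263 and 243 in other GABA nuclei. Sorcs1 read 734 and 670 in Vip nuclei and 212 and 285 in the others. Its difference thus came with a higher level in the other nuclei of Tau+ libraries. Myo10 did likewise, at 34.0 and 29.6 in Vip nuclei and 15.1 and 34.55 in the others. So did Galnt13 (248 and 218, then 236 and 341) and Man1a (158 and 136, then 137 and 216). Hunk, like Cdh9, moved mostly in Vip nuclei (35.9 and 13.0, then 94.9 and 94.3 in the others).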

How the results depend on the processing

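Small counts of called genes moved with several settings. Without a filter on low counts the calls were 3 for tau in Ch25h+/+, 22 for tau in libraries labelled Ch25h-/-, 13 for tau over both, 9 for genotype in Tau-, 11 for the interaction, 1581, 2461 and 1550 against Sst, Pvalb and Lamp5 nuclei (687, 1069 and 689 with it) and 224 for Calb2 (94 with it). For tau in Ch25h+/+, DESeq2, the library set as a block and a filter at 3 counts each gave 1. That filter gave 2 for the interaction. At least 3 Vip UMIs gave 2 for tau in those labelled Ch25h-/-, 0 for genotype in Tau- and 0 for the interaction. Without high doublet scores the calls were 2 for tau in those labelled Ch25h-/- and 0 for the interaction. Without glial UMIs genotype in Tau- and the interaction gave 0, as did genotype in Tau- fitted on its own 2 groups. Replicates 1 and 2 alone gave 1, 18, 11, 5 and 3 for the 3 tau comparisons, genotype in Tau- and the interaction; replicates 3 and 4 alone gave 0 for the last 4. The filter at 3, the replicate pairs, the glial setting and the Calb2 minimum were chosen after seeing the data. The cause was not tested.

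Some differences in share, of which 0 passed their tests, changed sign. For the Vip share these were tau in those labelled Ch25h-/- (main value -0.071 points) with at least 3 Vip UMIs (0.317 points) or thinning before the rule (0.413), genotype in Tau+ (-0.640) with thinning (0.472), and genotype over both (-0.0803) with thinning (0.536) or all nuclei as denominator (0.006996). For the Calb2 share these were tau in Ch25h+/+ (2.40) with at least 3 Vip UMIs (-6.05) or no thinning (-0.133), and genotype in Tau- (0.732) without doublets (-2.53), with at least 3 Vip UMIs (-5.73) or no thinning (-4.81).

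Leaving out 1 library at a time gave 0 to 2 calls for tau in Ch25h+/+, 1 to 8 in those labelled Ch25h-/-, 3 to 6 over both, 0 for genotype in Tau+ and over both, 0 to 2 in Tau-, 0 to 2 for the interaction, 661 to 712, 1019 to 1111 and 669 to 716 for the populations, 71 to 103 for Calb2, and 9 to 30 and 0 to 2 for tau and genotype against other GABA nuclei. The Vip share differences ran from 0.422 to 1.56, -0.415 to 0.545 and 0.186 to 0.787 for tau (Ch25h+/+, labelled Ch25h-/-, both) and from -1.06 to -0.217, -0.148 to 0.990 and -0.424 to 0.176 for genotype (Tau+, Tau-, both). The Calb2 share differences ran from -1.08 to 6.58, -10.2 to -5.08 and -4.43 to -0.825, and from -12.2 to -6.38, -2.75 to 4.91 and -5.89 to -2.61. Each library's values rest on 13 to 33 Vip nuclei. Mice were not paired across groups, since the replicate numbers follow accession order; the split into replicates 1 and 2 and replicates 3 and 4 was fitted as a block, as given above for tau in Ch25h+/+.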
